A study of Mus musculus with 4 samples.

Results

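The receptors for serotonin, dopamine, noradrenaline and adrenaline, histamine and acetylcholine are encoded in the mouse by the Htr, Drd, Adra and Adrb, Hrh, Chrm and Chrn genes. All genes of the deposited tables whose symbol belongs to 1 of these families were taken, which gave 53 of 32285 genes. They comprise 14 serotonin receptor genes, 5 dopamine, 6 alpha adrenergic, 3 beta adrenergic, 4 histamine, 5 muscarinic acetylcholine and 16 nicotinic acetylcholine receptor subunit genes. No measured value entered this choice.

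The monoamines and acetylcholine are released by small groups of brainstem, hypothalamic and basal forebrain neurons whose axons reach most of the brain, and their tone follows sleep, waking and arousal. Most of their receptors couple to G proteins: Gq-coupled receptors such as M3, 5-HT2, H1 and alpha1 raise calcium, Gi-coupled receptors such as M2, 5-HT1, alpha2, D2 and H3 lower cyclic AMP and open potassium channels, and Gs-coupled receptors such as 5-HT4, 5-HT7, D1, H2 and the beta receptors raise cyclic AMP. The nicotinic receptors and 5-HT3 are ion channels made of 5 subunits. In the paraventricular nucleus (PVN) of the hypothalamus, noradrenaline and serotonin input acts on the neurons that release stress and pituitary hormones.

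RNA of single nuclei was counted from micropunched PVN of male C57BL/6 mice aged 10 weeks, collected at zeitgeber time (ZT, hours after lights on) 8, in the light phase, or ZT20, in the dark phase. Each library pooled the punches of 5 mice, nuclei were purified on a sucrose gradient, and 2 libraries were made per time with a droplet assay that reads the 3' end of transcripts. The comparison asks which receptor transcripts differ between day and night, and the classes of nuclei give the setting in which each is read. The mice carried no labelled allele or drug, so ZT8 and ZT20 differ in time of day alone as far as the labels say.

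The summed unique molecular identifiers (UMIs) ran from 57970649 to 69223344 per library, and 6053, 6513, 7747 and 8667 nuclei were kept (ZT8 replicates 1 and 2, then ZT20 replicates 1 and 2, the order of every group of 4 values here). Pairs of libraries shared 9 to 22 barcodes. Nothing in the labels tells whether both libraries made at 1 time used different pools, so every p-value measures only the spread between these libraries, which may be technical. Nuclei in clusters left without a name were 30.02 and 31.52% at ZT8 and 43.95 and 52.05% at ZT20, most of them low in UMIs. The labelled tissue was checked against its markers: neurons with the markers of the PVN, such as Sim1, numbered 42 and 36 at ZT8 against 222 and 190 at ZT20, while neurons with thalamic markers were the most numerous named type, at 1019, 1115, 709 and 644. Thalamic-like neurons thus outnumbered PVN-like ones in every library, and by more at ZT8 than at ZT20.

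The 4 promoters below belong to the members on which the results by time turn: Chrm2, Chrm3 and Htr1f, whose change between ZT8 and ZT20 differed between neuron types, and Adra2a, which was higher at ZT20 in neurons. Each is the stretch of 250 bases before the RefSeq transcription start on GRCm38.p6, printed 5′ to 3′ on the strand of the gene, at chr6:36387834-36388083 (plus strand, Chrm2), chr13:10360804-10361053 (minus, Chrm3), chr16:65105785-65106034 (minus, Htr1f) and chr19:54045009-54045258 (plus, Adra2a). Capitals mark the letters CACGTG, the canonical E-box that CLOCK and BMAL1 can bind, which reads the same on both strands.
Chrm2: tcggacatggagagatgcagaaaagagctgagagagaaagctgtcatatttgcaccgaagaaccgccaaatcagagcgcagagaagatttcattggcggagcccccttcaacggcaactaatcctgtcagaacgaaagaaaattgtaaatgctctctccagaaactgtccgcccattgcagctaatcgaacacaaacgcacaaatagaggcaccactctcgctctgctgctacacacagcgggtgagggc
Chrm3: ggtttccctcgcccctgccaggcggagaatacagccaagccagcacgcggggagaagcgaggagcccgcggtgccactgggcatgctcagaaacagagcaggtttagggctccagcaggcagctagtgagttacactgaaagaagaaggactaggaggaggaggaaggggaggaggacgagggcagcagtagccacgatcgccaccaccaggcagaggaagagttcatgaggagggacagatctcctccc
Htr1f: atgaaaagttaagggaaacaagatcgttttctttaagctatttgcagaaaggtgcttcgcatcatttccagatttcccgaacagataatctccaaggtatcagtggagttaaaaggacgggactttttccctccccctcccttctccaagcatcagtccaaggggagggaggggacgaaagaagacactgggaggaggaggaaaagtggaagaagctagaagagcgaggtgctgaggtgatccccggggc
Adra2a: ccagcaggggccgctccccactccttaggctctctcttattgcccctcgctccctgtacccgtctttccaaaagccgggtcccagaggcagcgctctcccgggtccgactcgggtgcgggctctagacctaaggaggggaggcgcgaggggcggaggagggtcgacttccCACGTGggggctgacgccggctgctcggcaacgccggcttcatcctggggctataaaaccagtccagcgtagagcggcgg
Of these 4 windows, that of Adra2a holds 1 match. The GENCODE M21 annotation puts the start of Adra2a at 54044151, so its whole window lies inside the gene there. In the same annotation Chrm3 starts at 10360847 and Htr1f at 65105854, within their windows. Chrm2 starts at 36388084, just after its window. RefSeq gave a promoter for 40 of the 53 members, with 49 windows in all, and 3 windows held CACGTG, those of Adra2a, Adra2c and Chrna7. That is 6.12% of the member windows, against 6.02% of all 32851 windows of the same length. A match describes letters, not binding, and these nuclei were not assayed for any factor.

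Most receptor UMIs in neurons came from a few genes, which says how many molecules were counted and not how the genes' levels compare. Chrm3, the Gq-coupled M3 muscarinic receptor, had 481.0 CPM (UMI counts scaled to a common total per sum) over all neuron-like nuclei, Htr2c (5-HT2C) had 379.5 CPM, Chrm2 (the Gi-coupled M2 receptor) had 201.5 CPM and Htr7 (5-HT7) had 129.6 CPM. These 4 genes held 73.35% of the 258320 member UMIs in neurons. Of the 53 members, 35 reached 1 CPM, 17 reached 10 CPM and 4 reached 100 CPM. The 18 below 1 CPM include Drd4, Hrh4, Chrm4, Chrm5, the muscle subunits Chrna1, Chrne and Chrng, and Htr3a and Htr3b, which build the 5-HT3 channel. Chrnd, another muscle subunit, had no UMI in any library. By family, 11 of 14 serotonin, 4 of 5 dopamine, 5 of 6 alpha adrenergic, 2 of 3 beta adrenergic, 3 of 4 histamine, 3 of 5 muscarinic and 7 of 16 nicotinic genes reached 1 CPM in neurons.

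Nuclear RNA is largely unspliced, so long genes collect more counts, and levels of different genes can be compared only per kilobase of gene, introns included. On that scale the order differed from that of the counted UMIs. Hrh3, the Gi-coupled H3 receptor that acts as an autoreceptor of histamine neurons and curbs release from other neurons, came to 9.819 CPM per kb over its 5.02 kb (chromosome 2, 180099465 to 180104488, minus strand). Htr2c, at 1.617 CPM per kb over 234.76 kb (chromosome X, 146962513 to 147197277, plus strand), came next, followed by Chrm2 at 1.436, Adrb1 (the beta1 receptor) at 1.406, Htr1b (5-HT1B) at 1.330 and Htr7 at 1.312 CPM per kb. Chrm3 was at 0.991 CPM per kb over 485.36 kb (chromosome 13, 9875486 to 10360847, minus strand) and Htr1f (5-HT1F) at 0.288 CPM per kb over 181.13 kb (chromosome 16, 64924729 to 65105854, minus strand). Single priming sites inside a gene also set these values, so the scale is coarse. The annotation puts a gene on the same strand inside 6 members, Chrm3, Htr2c and Chrm2 among them, and a gene on the opposite strand across 16, such as Psmd1 across Htr2b and Adar across Chrnb2. Whether the counting used the strand is not given in the sources used here, so reads of such neighbours cannot be told apart from those of the member.

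**Figure D1:**
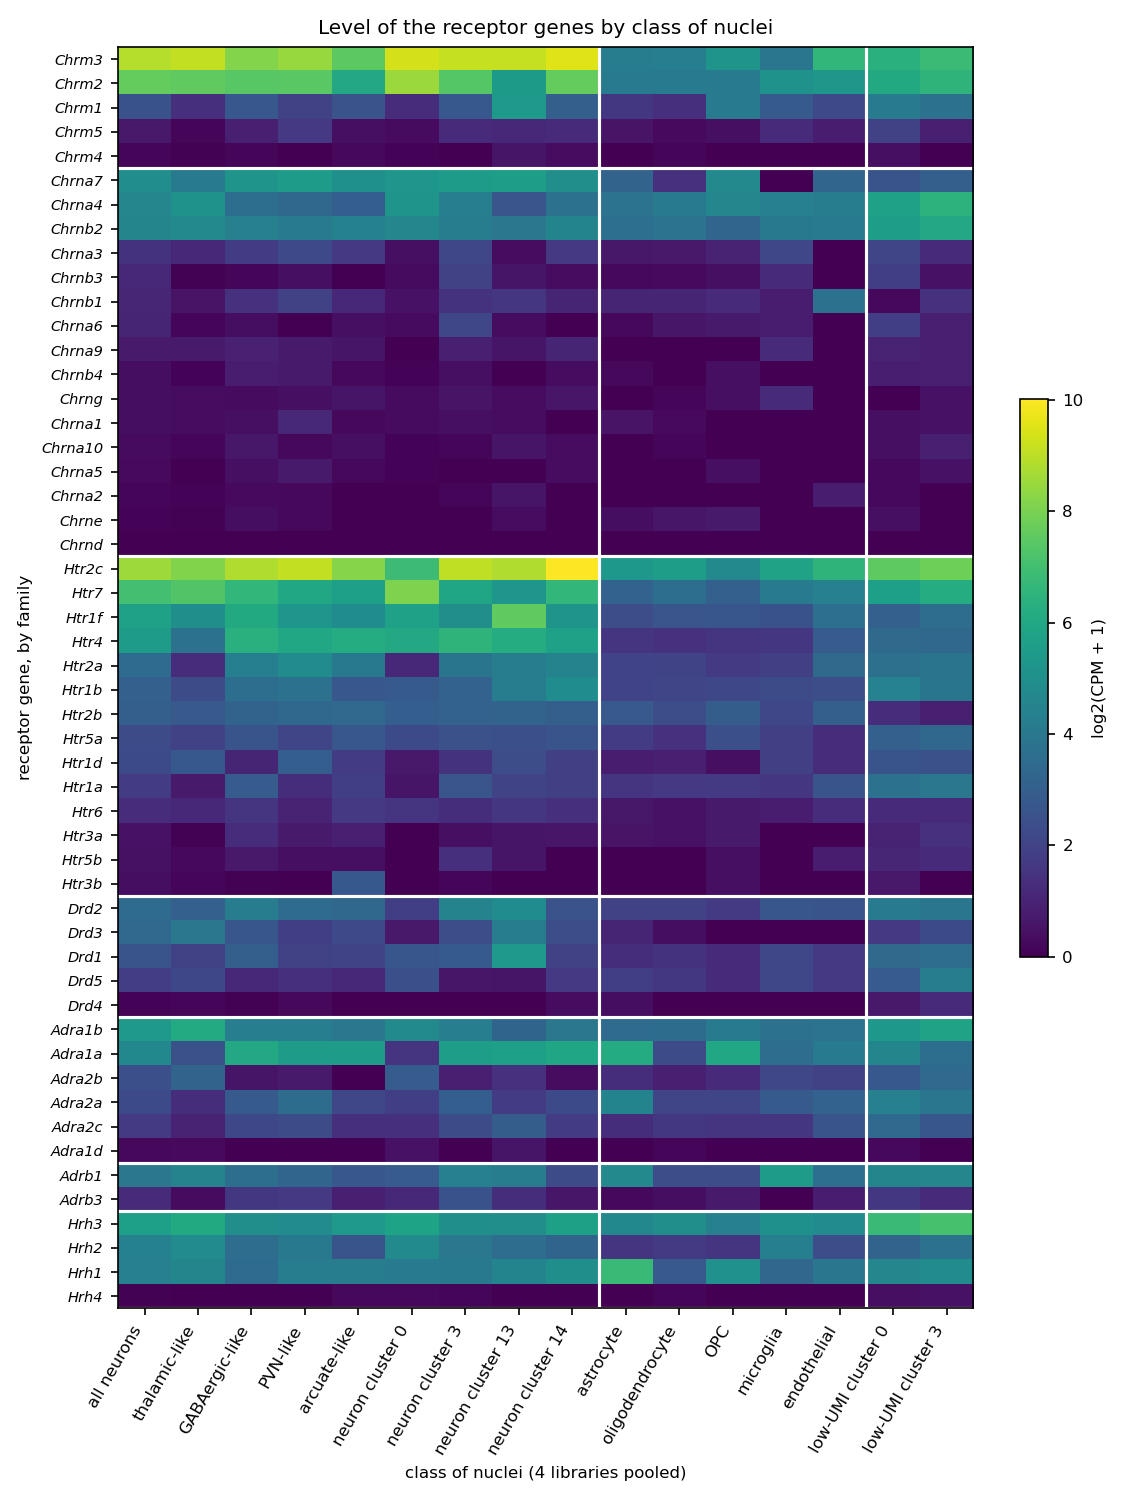
Level of the receptor genes in 16 classes of nuclei, as log2(CPM + 1) of the counts pooled over the 4 libraries (colour), with genes in rows by family and classes in columns. Chrm3, Htr2c, Chrm2 and Htr7 are high across the neuron classes, and Hrh1 and Adra1a in astrocytes.

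Each class was compared with the equally weighted mean of the other classes in edgeR with the library as a term. The members were left out of the genes used for clustering, but the nuclei were sorted on other genes that can move with them, so the tests describe how far classes differ. In neurons 18 of the 21 members that passed the filter were higher than the mean of the glial and endothelial classes. Another 1, Adra2a, was lower. Of all genes 76.0% differed, 41.1% higher and 34.8% lower. The filter kept a gene with enough counts in any 1 class, so members kept through neurons could hardly come out lower there. Htr4, at 43.95 CPM in neurons and 1.659 to 6.489 CPM in the other classes, is such a member. The count of 18 describes these members and is no test of their direction. Single classes could still stand above neurons: Hrh1, Adra1a and Adrb1 had 106.1, 70.63 and 25.06 CPM in astrocyte-like nuclei against 19.70, 24.60 and 15.35 CPM in neurons. The widest gaps were those of Chrm3 (log2 difference 4.44 ± 0.10 SE), Htr4 (4.42 ± 0.16), Chrna7 (3.91 ± 0.27), Htr7 (3.76 ± 0.08), Chrm2 (3.45 ± 0.09) and Htr1f (3.45 ± 0.12). Htr4 encodes the Gs-coupled 5-HT4 receptor and Chrna7 the subunit of the alpha7 nicotinic channel. Hrh1, Adra1a and Adra2a passed by 0.30, 0.51 and -0.62, and each lost the call in 2 of the 4 fits that left out a library (edgeR adjusted p up to 0.131, 0.108 and 0.122).

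Among neuron types, thalamic-like neurons had 12 of 28 members higher than the mean of the other neuron classes and 13 lower, where 54.8% of all genes differed. Higher were the alpha adrenergic genes Adra2b (log2 difference 3.09 ± 0.23 SE) and Adra1b (2.23 ± 0.11), then Htr1d (1.98 ± 0.20), Drd3 (1.95 ± 0.17), Chrna4 (1.43 ± 0.09), Adrb1 (1.28 ± 0.10), Hrh2 (1.15 ± 0.09), Hrh3 (0.97 ± 0.05), Htr7 (0.95 ± 0.06), Chrnb2 (0.53 ± 0.08), Hrh1 (0.52 ± 0.09) and Chrm2 (0.49 ± 0.08). All 3 histamine receptors tested and both subunits of the alpha4beta2 nicotinic channel were thus on the higher side. Lower were Htr2a (-2.68 ± 0.21), Adra1a (-2.42 ± 0.18), Htr4 (-2.36 ± 0.06), Chrm1 (-1.87 ± 0.21), Htr1a (-1.81 ± 0.34), Chrna7 (-1.08 ± 0.08) and 7 further genes. The alpha1 receptors split: Adra1b had 69.80 CPM in thalamic-like and 18.75 CPM in GABAergic-like neurons, whereas Adra1a had 4.614 and 64.43 CPM. Of these calls, those of Htr5a and Adra2a did not hold without every single library.

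GABAergic-like neurons had 6 members higher and 7 lower, where 29.4% of all genes differed. Adra1a (1.85 ± 0.10), Htr1a (1.82 ± 0.25), Htr2a (1.51 ± 0.14) and Htr4 (0.60 ± 0.06) were on the higher side, as log2 difference ± SE. Htr2c, the member with most UMIs in this class, read 463.2, 443.0, 456.4 and 460.2 CPM in the ZT8 and then the ZT20 libraries, and the times overlapped. An unnamed neuron cluster, number 13, with GABA markers and led by Meis2, had 13 members higher and 6 lower, where 27.6% of all genes differed. There Chrm1 (log2 difference 3.50 ± 0.20 SE), Drd1 (3.10 ± 0.19), Htr1f (2.32 ± 0.23), Drd3 (2.29 ± 0.31) and Drd2 (1.69 ± 0.26) stood higher. Summed over its nuclei, this cluster was thus high in the genes of the D1, D2 and D3 dopamine receptors, M1 and 5-HT1F. Whether single nuclei carried several of them was not tested.

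The other 3 unnamed neuron clusters that were tested carried Slc17a6, the vesicular glutamate transporter, at 242.9 to 316.1 CPM. Cluster 0 had 11 members higher and 10 lower (38.0% of all genes differed), with Adra2b (2.70 ± 0.32), Htr7 (1.84 ± 0.07), Chrm2 (1.57 ± 0.09) and Chrna4 (1.48 ± 0.12) higher and Adra1a (-3.98 ± 0.24) and Htr2c (-1.97 ± 0.08) lower. Cluster 14 had 6 higher and 5 lower (15.5%), led by Htr2a (1.76 ± 0.23), Adra1a (1.73 ± 0.17), Htr1b (1.70 ± 0.23) and Htr2c (1.59 ± 0.07). Cluster 3 had 9 higher and 3 lower (27.3%), with Htr1a (1.45 ± 0.33), Adra1a (1.36 ± 0.13) and Drd2 (1.22 ± 0.21) higher. Cluster 0 and cluster 14 thus lay on opposite sides for Htr2c, at 116.9 and 1039 CPM.

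Over the 33 neuron clusters, members ranged widely, and these ranges carry no test. Htr2c ran from 21.32 to 1499 CPM, with its highest level in cluster 20, where the libraries had 1588, 1531, 1482 and 1317 CPM. Htr1f ran from 3.81 to 747.3 CPM and peaked in cluster 28, a group of 104 nuclei led by Meis2. This group also had the highest Chrm1 (92.01 CPM), Drd1 (58.35 CPM), Hrh1 (51.62 CPM), Adra2a (51.62 CPM) and Adra2c (16.83 CPM). The Adra2c value rests on 15 UMIs. Summed over its nuclei, that cluster thus had receptor genes of 5 transmitters at the top of their range. Whether the same nuclei carried them was not tested. Chrm2 was highest in cluster 32, at 629.8 CPM, together with Chrna7 at 114.5 CPM. Its 23 nuclei (13, 6, 1 and 3 by library) were led by Slc5a7 and Chat, which encode the choline transporter and the enzyme that makes acetylcholine, so the M2 gene, a known autoreceptor of cholinergic neurons, and the alpha7 subunit gene were at their highest among cells with cholinergic markers.

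Among thalamic-like clusters, Drd3 and Htr1d both peaked in cluster 5 (61.80 and 34.17 CPM), Adra1b in cluster 7 (124.9 CPM), Adrb1 in cluster 18 (57.44 CPM), Hrh3 in cluster 9 (101.2 CPM), Drd5 in cluster 12 (8.498 CPM) and Chrm3 in cluster 1 (1029 CPM). Adrb1 in cluster 18 read 39.73 and 41.50 CPM at ZT8 and 76.68 and 74.06 at ZT20. Among GABAergic-like clusters, Adra1a peaked in cluster 27 (162.5 CPM) and Htr4 in cluster 26 (123.9 CPM). The subunit genes Chrna3 and Chrnb4, which form a channel of peripheral ganglia and the habenula, were also highest in cluster 26, at 9.218 and 4.609 CPM. These 2 peaks rest on only 16 and 8 UMIs. Chrna6 and Chrnb3, subunits found together in dopamine neurons, were highest in cluster 15, at 16.87 and 27.37 CPM, on 61 and 99 UMIs. Htr3b had 35 of its 49 neuron UMIs in the arcuate-like cluster 4 (0, 0, 8.870 and 3.139 CPM by library), and that cluster held 15 and 17 nuclei at ZT8 against 291 and 276 at ZT20.

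Some members stood higher in glia and vessel cells than in neurons. Neuron markers in these nuclei gave a rough measure of free RNA. The 8 markers stood at a median of 28.51 to 30.18% of their neuron level in astrocyte-like and 23.10 to 26.84% in oligodendrocyte-like nuclei. The median was 31.21 to 32.43% in oligodendrocyte precursor-like (OPC-like), 23.20 to 32.21% in microglia-like and 37.66 to 51.77% in endothelial-like nuclei. Single markers spread widely, from 4.681 to 149.6% in astrocyte-like, 6.058 to 180.5% in oligodendrocyte-like and 6.739 to 129.1% in OPC-like nuclei. They ran from 7.073 to 223.0% in microglia-like and 15.11 to 182.9% in endothelial-like nuclei, so the median is not a floor. Members at or below the median share can be background, which was not tested. In astrocytes Chrm3 (3.655% of its neuron level) and Htr4 (4.334%) stood below the lowest single marker. Htr2c (10.50%) stood below the median alone. Among the members that stood above both the neuron level and that of the low-UMI clusters were Hrh1, Adra1a, Adra2a and Adrb1 in astrocyte-like, Adra1a, Hrh1 and Chrm1 in OPC-like, Adrb1 in microglia-like, and Chrnb1 in endothelial-like nuclei. Some did so narrowly. In astrocyte-like nuclei Adrb1 had 25.06 CPM against 23.68 in low-UMI cluster 3, and Adra2a 22.13 against 19.83 in low-UMI cluster 0. In OPC-like nuclei Chrm1 had 16.46 CPM against 16.05 in low-UMI cluster 0, and Hrh1 32.59 against 27.91 in low-UMI cluster 3. These 4 are therefore not clear of background.

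In astrocyte-like nuclei 4 members were higher than the mean of the other classes and 10 lower, where 49.7% of all genes differed. The 4 were Hrh1 (log2 difference 2.996 ± 0.123 SE), Adra2a (2.31 ± 0.26), Adra1a (2.17 ± 0.21) and Adrb1 (1.27 ± 0.19), that is, the H1 histamine receptor and receptors for noradrenaline of all 3 classes. Of these, Adra2a and Adrb1, at 22.13 and 25.06 CPM, stood little above the low-UMI clusters. Hrh1 read 107.3, 105.3, 103.4 and 108.7 CPM in the ZT8 and ZT20 libraries, against 19.70 CPM in neurons. Adra1a read 84.14, 71.80, 56.03 and 72.45 CPM, and Adra2a 23.17, 19.15, 27.47 and 18.11 CPM. In all 3 genes the times overlapped. Noradrenaline acting through alpha1 receptors is known to raise calcium in astrocytes.

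OPC-like nuclei had 5 members higher and 6 lower (41.6% of all genes differed). The 5 were Chrna7 (log2 difference 3.50 ± 0.49 SE), Chrm1 (2.45 ± 0.36), Adra1a (2.01 ± 0.27), Hrh1 (1.04 ± 0.21) and Chrna4 (0.63 ± 0.20), the last of which lost its call without ZT8 replicate 1 or ZT20 replicate 1 (edgeR adjusted p = 0.0508 and 0.134). Adra1a read 57.22, 56.31, 62.02 and 72.27 CPM in these nuclei. Of these, Chrna7, at 25.17 CPM, was below its neuron level of 29.27 CPM, while Adra1a was above that of neurons. Chrm1 and Hrh1, at 16.46 and 32.59 CPM, stood little above the low-UMI clusters. Chrna4, at 24.20 CPM, was below both of them (52.72 and 88.79 CPM). Oligodendrocyte-like nuclei, by contrast, had 0 members higher and 12 lower in the same edgeR test. Of all genes 55.4% differed, 26.0% higher and 29.4% lower. Members that the filter kept through another class lean to the lower side here.

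Microglia-like nuclei had 3 members higher and 5 lower (45.6% of all genes differed), Adrb1 and Hrh2 among the higher ones. Adrb1 read 52.10, 45.96, 38.67 and 38.77 CPM in microglia against 15.35 CPM in neurons (log2 difference from the other classes 1.93 ± 0.26 SE). Hrh2 read 26.05, 17.88, 11.90 and 19.38 CPM (2.09 ± 0.43), near its neuron level of 20.08 CPM. The times did not overlap for Adrb1, which was not called between them, and overlapped for Hrh2. Endothelial-like nuclei had 3 higher and 0 lower (39.5%), among them Htr2a (1.37 ± 0.49) and Chrm3 (1.03 ± 0.22). Both calls were lost without ZT8 replicate 2, with an edgeR adjusted p of 0.295 for Htr2a and 0.0509 for Chrm3. Chrm3 stood at 20.53% of its neuron level in these nuclei (98.77 against 481.0 CPM), below the median share of the neuron markers. It read 129.2 and 138.6 CPM at ZT8 and 20.77 and 20.67 at ZT20. The low-UMI clusters, where the neuron markers had a median near their neuron level, had 81.36 and 111.6 CPM of Chrm3. How much of the endothelial-like level is background was not tested. Fibroblast-like nuclei, too few to test, had 309.5, 547.8, 501.7 and 352.5 CPM of Chrm3.

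**Figure D2:**
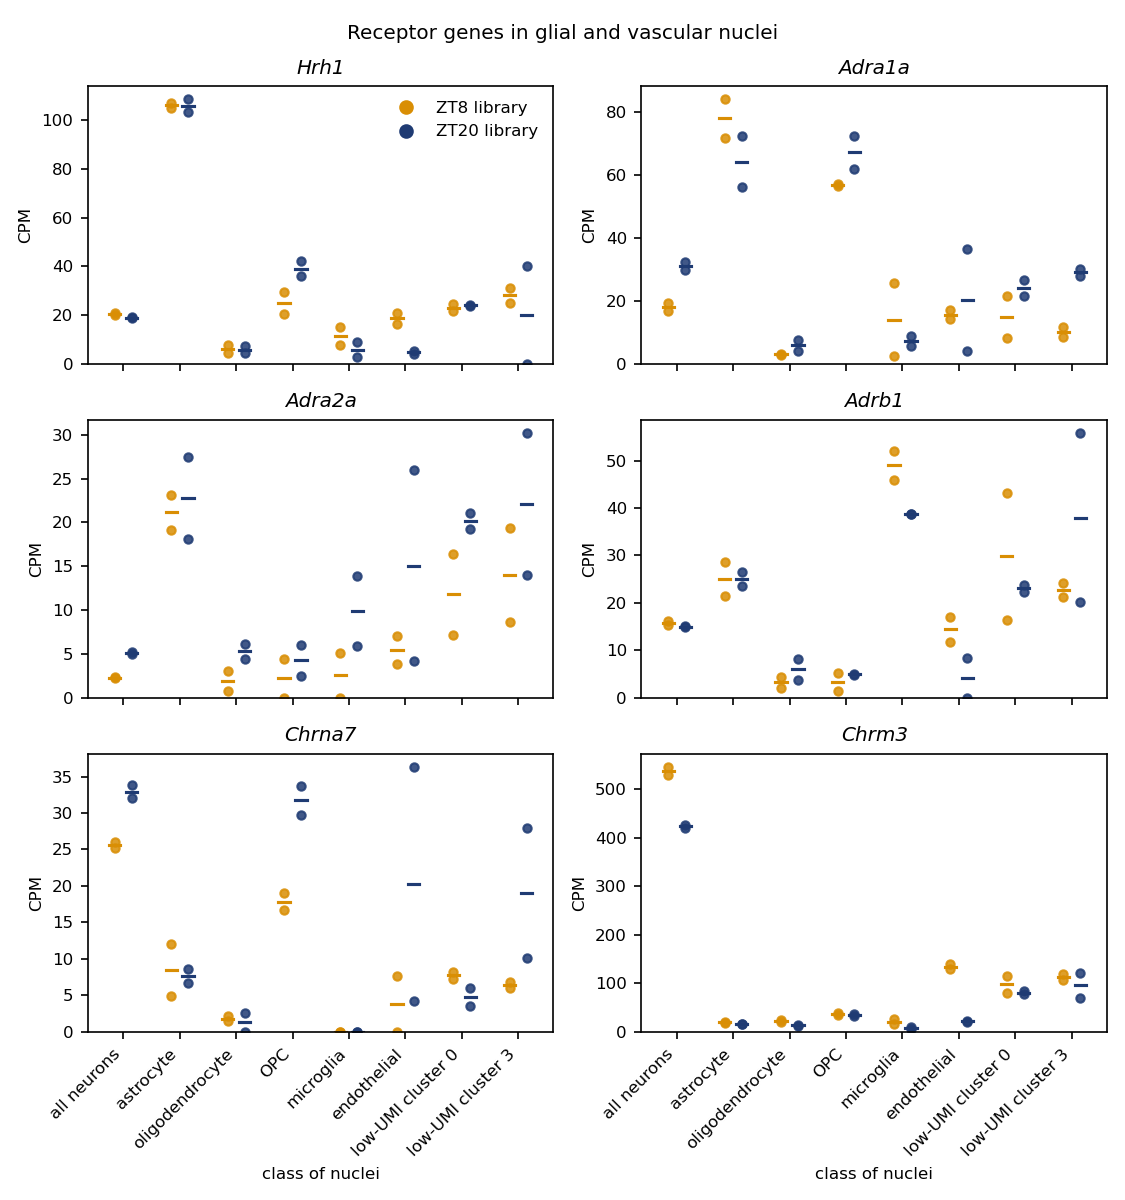
Level in CPM of Hrh1, Adra1a, Adra2a, Adrb1, Chrna7 and Chrm3 in each library (points, ZT8 and ZT20 marked apart) for neurons and the glial and vascular classes. Hrh1 stands near 106 CPM in astrocytes in all 4 libraries, Adrb1 between 38.67 and 52.10 CPM in microglia, and Chrm3 in endothelial nuclei is at 129.2 and 138.6 CPM at ZT8 and 20.77 and 20.67 CPM at ZT20.

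The low-UMI nuclei carried a different receptor profile. The largest such cluster, number 0 of all nuclei, had a median of 895 UMIs per nucleus and 131, 238, 2782 and 3794 nuclei, and cluster 3 had a median of 822 UMIs and 1258, 1312, 85 and 121 nuclei. Hrh3 had 107.5 and 137.0 CPM in these clusters against 49.33 CPM in neurons, Chrna4 had 52.72 and 88.79 CPM against 23.76, while Chrm3 had 81.36 and 111.6 CPM against 481.0. Hrh3 and Chrna4 were thus above, and Chrm3 below, the level in neurons. The 8 neuron markers stood at a median of 103.9 to 117.6% and 88.31 to 120.9% of their neuron level there. Single markers ran from 23.8 to 700.7% in cluster 0 and from 24.56 to 797.0% in cluster 3.

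Between the times, 30 of the 44 members that passed the filter differed in neurons as a whole, 18 higher and 12 lower at ZT20 (edgeR, adjusted p under 0.05), where 43.5% of all genes tested differed. The median log2 change of the tested members was 0.32, against 0.01 over all genes. Of the 14 serotonin receptor genes 7 were higher and 2 lower, and all 3 histamine receptors tested were lower. The neuron types behind these sums also differed: in neurons the summed CPM of 8 thalamic markers was 4519 and 4599 at ZT8 and 3200 and 3115 at ZT20, that of 8 PVN markers 20.81 and 33.42 against 212.4 and 197.9, and that of 6 GABAergic markers 217.0 and 211.1 against 320.1 and 336.5. These sums alone do not tell fewer neurons of a type from less RNA per neuron. Thalamic-like nuclei numbered 1019, 1115, 709 and 644, with a median of 17450, 19270, 17660 and 17400 UMIs each. PVN-like nuclei numbered 42, 36, 222 and 190, with a median of 12360, 12790, 11760 and 11390 UMIs. The part of each in the sums was not tested.

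The muscarinic genes were lower at ZT20 for the pair with most UMIs and higher for Chrm1. Chrm3 read 529.0 and 546.6 CPM at ZT8 and 426.5 and 420.5 at ZT20 (log2 change -0.40 ± 0.02 SE, edgeR adjusted p = 2.91e-14). Chrm2 read 209.6 and 216.4 CPM against 192.5 and 187.0 (-0.22 ± 0.02, edgeR adjusted p = 3.9e-08), and Chrm1, the M1 receptor, 3.078 and 3.417 against 6.123 and 6.477 (0.90 ± 0.11, 4.03e-07). In these 3 genes the libraries of a time lay close together and the times did not overlap.

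Of the serotonin receptors, Htr7 was lower and Htr2a and Htr4 higher at ZT20. Htr7 read 148.6 and 147.0 CPM at ZT8 and 110.6 and 112.1 at ZT20 (log2 change -0.46 ± 0.03 SE, edgeR adjusted p = 1.29e-13). Htr2a, the Gq-coupled 5-HT2A receptor, read 7.682 and 7.254 CPM against 12.84 and 14.21 (0.81 ± 0.08, edgeR adjusted p = 7.35e-09), and Htr4 38.41 and 36.90 against 52.39 and 48.11 (0.37 ± 0.04, 1.7e-07). Neither gene overlapped between the times. Htr2c, the serotonin receptor gene with most UMIs, read 361.2 and 368.8 against 394.8 and 392.6 CPM (0.06 ± 0.02, edgeR adjusted p = 0.027), and that call was lost without ZT8 replicate 1 (0.04, edgeR adjusted p = 0.235) or ZT20 replicate 1 (0.05, 0.109). Htr3b, with 33 and 13 UMIs at ZT20, had 1 and 2 at ZT8.

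The alpha adrenergic genes moved in both directions. Adra1a read 16.70 and 19.19 CPM at ZT8 and 32.44 and 29.83 at ZT20 (log2 change 0.74 ± 0.06 SE, edgeR adjusted p = 6.16e-10), and Adra2a 2.234 and 2.340 against 5.259 and 4.992 (1.11 ± 0.13, 1.27e-07). Adra1b went the other way, from 48.16 and 47.55 to 35.60 and 36.30 CPM (-0.47 ± 0.04, edgeR adjusted p = 4.55e-10). The gene high in GABAergic-like neurons thus rose and the one high in thalamic-like neurons fell in the sum over neurons. Hrh2, the Gs-coupled H2 receptor, read 23.51 and 24.64 against 16.79 and 15.26 CPM (-0.64 ± 0.06, edgeR adjusted p = 2.23e-09) and Hrh3 54.16 and 55.67 against 44.76 and 42.58 (-0.38 ± 0.04, 8.97e-09). Among the nicotinic subunits Chrna4 read 27.10 and 28.03 against 20.99 and 18.82 CPM (-0.52 ± 0.06, edgeR adjusted p = 2.8e-08), while its partner Chrnb2, at 24.00, 22.63, 22.79 and 22.09 CPM, did not pass (edgeR adjusted p = 0.118).

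The other calls in neurons were those of Htr1b, Chrna7, Chrnb3, Chrna6, Drd1, Drd2, Chrm5, Adra2c, Adrb3, Htr1a and Htr2b on the higher side and Drd3, Drd5, Adra2b, Hrh1 and Htr1f on the lower side. Their log2 changes ran from -0.66 (Adra2b) to 1.49 (Chrnb3). Of these, Htr2b, Drd5, Hrh1, Adrb3, Chrna6, Drd1 and Htr1a lost the call in at least 1 fit that left out a library, where their edgeR adjusted p reached 0.174, 0.108, 0.1, 0.197, 0.116, 0.0716 and 0.2.

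The fit was repeated with every neuron cluster drawn down to an equal number of nuclei in each library (1609 nuclei per library). There 11 of 38 members differed, 6 higher and 5 lower, where 21.9% of all genes did. Of the 30 calls, 10 also passed here, 9 of them in the same direction: Chrm3 (log2 change -0.16), Htr1f (-0.22), Hrh2 (-0.22), Hrh3 (-0.14), Drd3 (-0.33), Htr1b (0.51), Chrm1 (0.43), Drd2 (0.33) and Adra2a (0.68). Chrm2 passed in the opposite direction, at 0.16 (edgeR adjusted p = 1.04e-04), and Adrb1 (0.31), not among the 30, passed as well. The log2 change shrank for Htr7 (-0.05), Adra1a (0.14), Htr2a (0.05) and Chrna4 (-0.04), none of which passed, and turned sign for Adra1b (0.05). Htr4, at 0.15, did not pass (edgeR adjusted p = 0.0669).

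**Figure D3:**
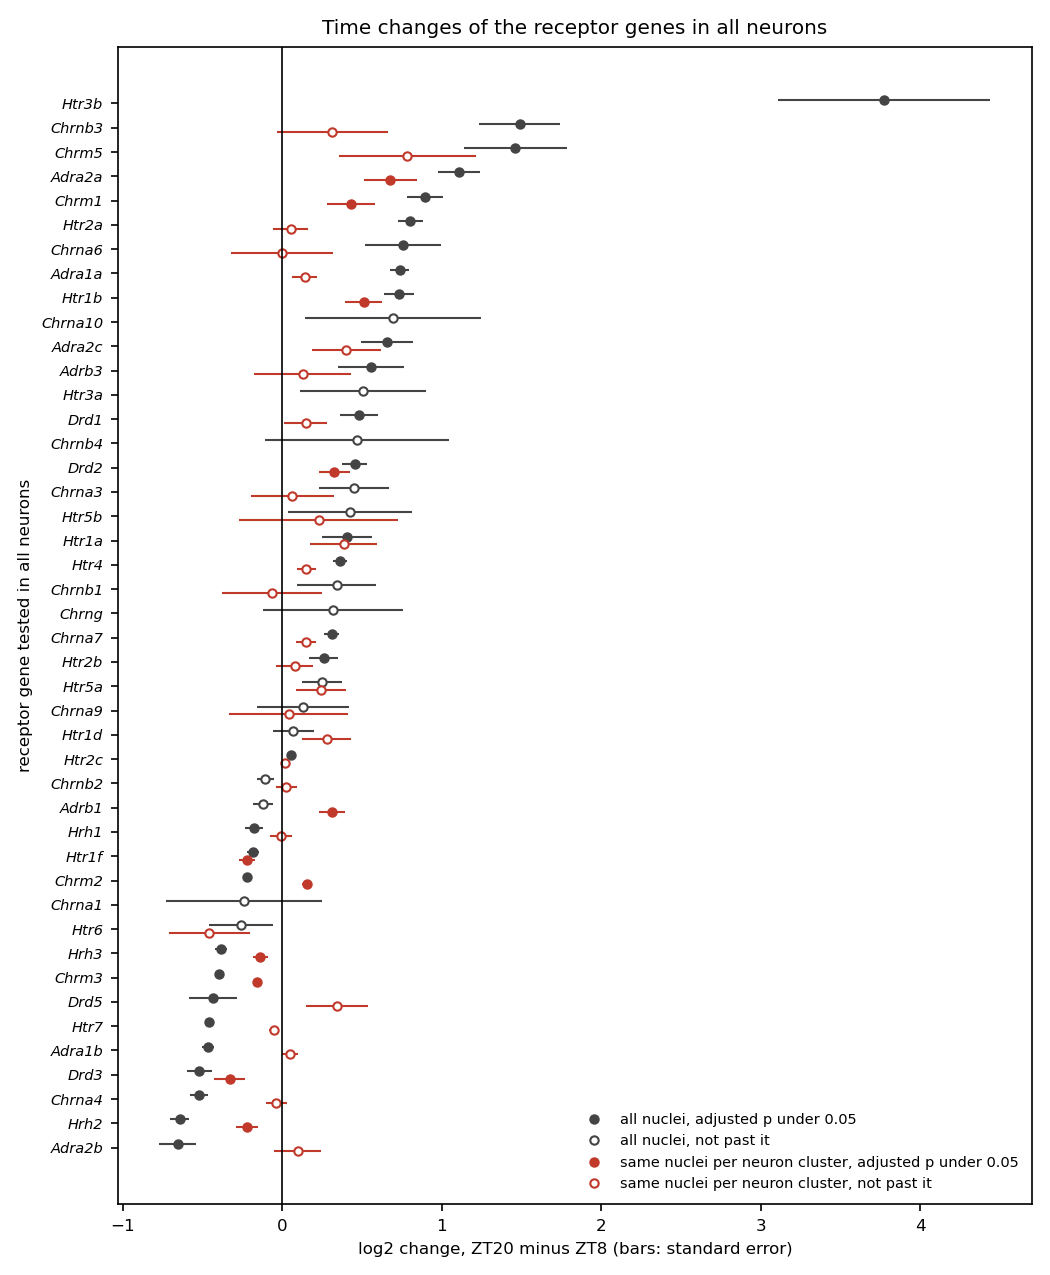
Log2 change from ZT8 to ZT20 of the 44 receptor genes tested in neurons (edgeR, bars ± SE), over all neuron-like nuclei and with every neuron cluster drawn down to equal size in each library, where 38 were tested. Htr7 lies at -0.46 in the first and -0.05 in the second, and Chrm2 at -0.22 and 0.16.

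Within thalamic-like neurons 8 of 32 members differed between the times, 5 higher and 3 lower at ZT20, where 19.4% of all genes did. Chrm2 rose, from 160.7 and 175.5 CPM at ZT8 to 222.0 and 223.9 at ZT20 (log2 change 0.42 ± 0.04 SE, edgeR adjusted p = 3.77e-14). Htr1f fell from 37.05 and 36.76 to 22.73 and 17.89 CPM (-0.84 ± 0.08, edgeR adjusted p = 1.31e-12), and Chrm3 from 565.0 and 586.8 to 497.1 and 484.0 (-0.22 ± 0.03, 1.42e-09). None of the 3 genes overlapped between the times. These 3 calls held without each library in turn and with the same nuclei per cluster (0.31, -0.73 and -0.24), and over all alternatives the adjusted p ran from 2.23e-32 to 1.31e-08 for Chrm2, from 4.11e-27 to 0.579 for Htr1f and from 3.73e-15 to 0.0226 for Chrm3, the last from the fit without neuron cluster 1, where the change of Chrm3 was 0.10, in the opposite direction. Markers of other cells moved in these nuclei too: the summed CPM of 8 PVN markers was 9.934 and 12.69 at ZT8 and 95.21 and 94.51 at ZT20. Of these markers Oxt alone ran from 4.917 to 75.77 CPM over the libraries, and Sim1 from 0.2484 to 2.996. The PVN sum thus leans on 1 peptide transcript. The sum of 8 oligodendrocyte markers was 238.4 and 250.3 against 177.1 and 181.3. The 8 thalamic markers stood at 6562 and 6736 against 6901 and 6814, with none of the markers at 0. The part of these in the result was not tested.

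The other 5 calls were smaller or rested on few UMIs. Hrh2 fell from 29.50 and 29.50 to 24.70 and 23.11 CPM (log2 change -0.29 ± 0.08 SE, edgeR adjusted p = 0.00321), a call lost without ZT20 replicate 2 (-0.24, edgeR adjusted p = 0.0767). Htr1b, a Gi-coupled receptor of axon terminals, rose from 2.980 and 3.481 to 4.677 and 5.541 CPM (0.66 ± 0.19, edgeR adjusted p = 0.00786), which did not hold without ZT8 replicate 1 (0.56, edgeR adjusted p = 0.0717) or ZT20 replicate 2 (0.54, 0.132). Adra2a (0.99 ± 0.30), Htr2a (0.95 ± 0.32) and Htr1d (0.43 ± 0.16) were higher too. None of these 3 held without ZT8 replicate 1 (0.98, 0.77 and 0.39), ZT8 replicate 2 (0.996, 1.18 and 0.47) or ZT20 replicate 2 (0.80, 0.56 and 0.30), with edgeR adjusted p of 0.0546 to 0.473. With the same nuclei per cluster, 6 of 30 members passed, where 14.4% of all genes did: Chrm2, Htr1f, Chrm3, Htr1b, Htr4 (0.42) and Adrb1 (0.35).

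The 8 thalamic-like clusters were also read singly, without a test. For Chrm2 both ZT20 libraries lay above both ZT8 libraries in 4 clusters and below in 2, for Chrm3 above in 1 and below in 4, and for Htr1f above in 0 and below in 2. With 2 libraries per time, many genes separate in this way without a change. The share of all genes that did so was not computed, so no conclusion is drawn from these counts. Cluster 1 was singled out after its values were seen. In it Htr1f read 112.2 and 116.7 CPM at ZT8 and 60.80 and 48.74 at ZT20, Chrm3 1085 and 1206 against 803.8 and 711.0, and Chrm2 266.5 and 291.3 against 263.3 and 242.2. Cluster 1 was 24.1 and 24.6% of thalamic-like nuclei at ZT8 and 18.3 and 17.4% at ZT20.

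Over the other 7 thalamic-like clusters, Htr1f read 15.53 and 14.25 CPM at ZT8 and 15.29 and 11.76 at ZT20, with overlapping times (log2 change -0.11 ± 0.12 SE, edgeR adjusted p = 0.579). Chrm3 read 416.0 and 412.3 against 437.2 and 438.9 CPM, the opposite direction (0.10 ± 0.03, edgeR adjusted p = 0.0226). Chrm2 read 130.4 and 142.9 against 213.9 and 220.3 CPM, a wider gap than with cluster 1 included (0.68 ± 0.04, edgeR adjusted p = 1.87e-16). In that setting 9 of 30 members passed, 7 higher and 2 lower, where 16.7% of all genes did. The rise of Chrm2 was therefore present with and without cluster 1, the fall of Htr1f was not called without it, and that of Chrm3 turned.

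**Figure D4:**
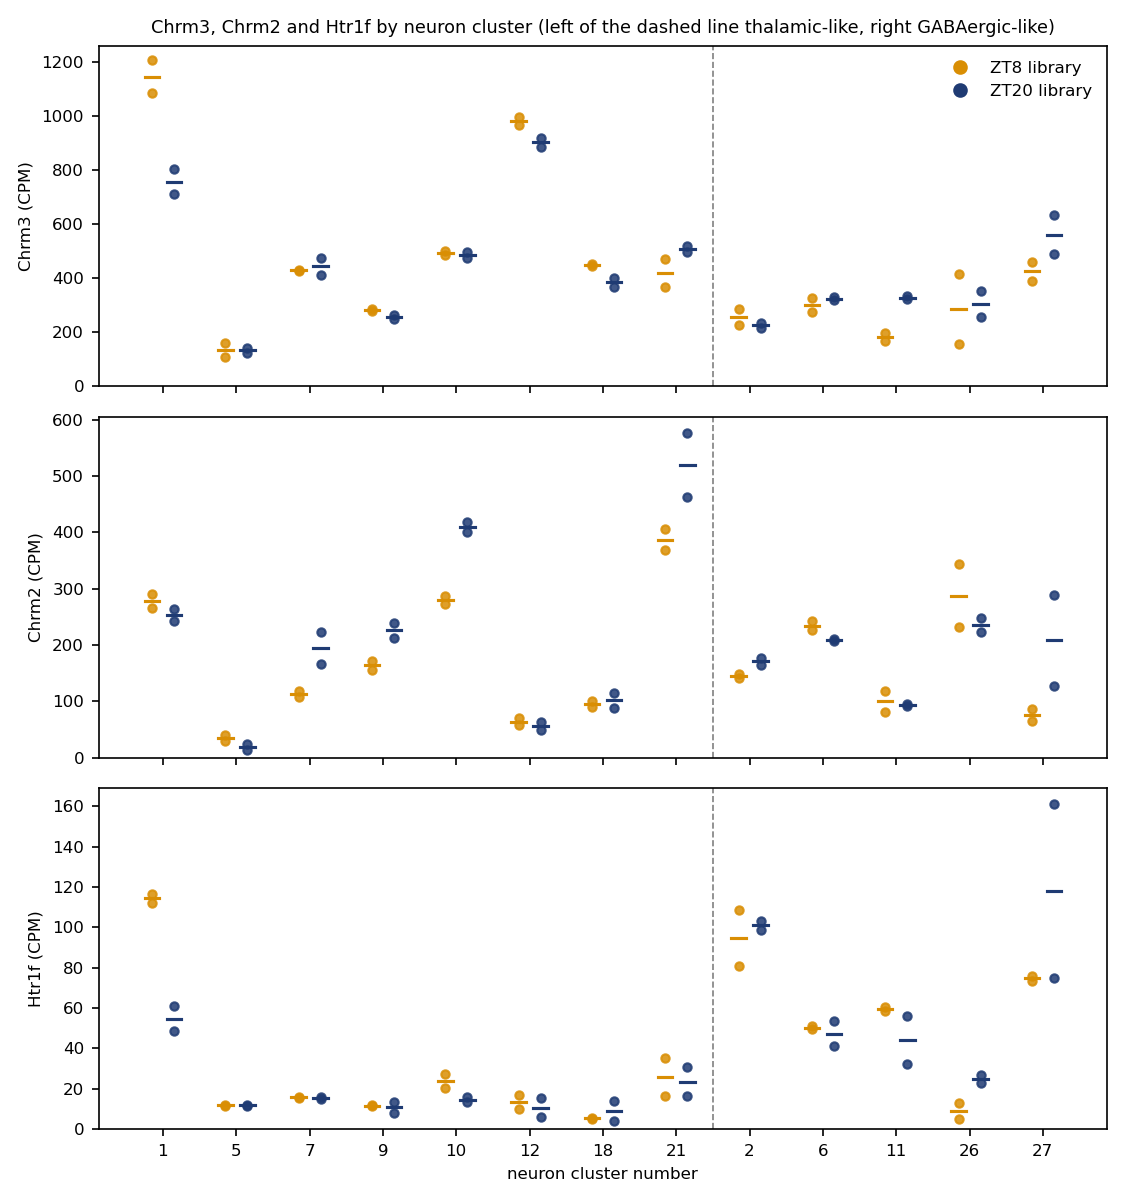
Level in CPM of Chrm3, Chrm2 and Htr1f in each library (points, ZT8 and ZT20 marked apart) for the 8 thalamic-like and 5 GABAergic-like neuron clusters. In cluster 1 Chrm3 falls from 1085 and 1206 to 803.8 and 711.0 CPM and Htr1f from 112.2 and 116.7 to 60.80 and 48.74 CPM.

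GABAergic-like neurons had 1 of 28 members called, where 7.03% of all genes were: Chrm3, at 235.3 and 281.1 CPM at ZT8 and 300.9 and 298.9 at ZT20 (log2 change 0.24 ± 0.06 SE, edgeR adjusted p = 0.0282). Without ZT8 replicate 1 this was no longer called (0.13, edgeR adjusted p = 0.308). With the same nuclei per cluster the single call was that of Htr7 (6.49% of all genes called). The summed CPM of 8 PVN markers in these nuclei was 29.48 and 34.32 at ZT8 and 160.9 and 142.3 at ZT20, and its part in the result was not tested. Of these markers Oxt alone ran from 8.233 to 116.2 CPM over the libraries, while Sim1 reached at most 5.564. The difference of the time changes between thalamic-like and GABAergic-like neurons was itself tested, and 3 members passed, where 2.31% of all genes did: Chrm2 (0.27 ± 0.07, edgeR adjusted p = 0.0301), Chrm3 (-0.46 ± 0.06, 6.43e-05) and Htr1f (-0.88 ± 0.13, 1.72e-04). The Chrm2 difference was not called without ZT8 replicate 1 (0.20, edgeR adjusted p = 0.356), ZT20 replicate 1 (0.26, 0.112) or ZT20 replicate 2 (0.28, 0.0756). With cluster 1 left out of the thalamic-like side, Chrm2 passed (0.53, edgeR adjusted p = 1.09e-05) and Chrm3 (-0.14, 0.406) and Htr1f (-0.15, 0.805) did not.

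In PVN-like neurons, a class tested as an addition because it held fewer than 50 nuclei per ZT8 library, 1 of 20 members was called, where 1.91% of all genes were. Htr4, whose Gs-coupled receptor raises excitability in many neurons, read 114.6 and 85.17 CPM at ZT8 and 63.29 and 48.09 at ZT20 (log2 change -0.84 ± 0.19 SE, edgeR adjusted p = 0.00884). The call was lost without ZT8 replicate 1 (-0.61, edgeR adjusted p = 0.231), ZT20 replicate 1 (-1.05, 0.0973) or ZT20 replicate 2 (-0.65, 0.597). The PVN marker sum of this class was 223.6 and 1024 CPM at ZT8 and 1187 and 1322 at ZT20, so ZT8 replicate 1 stood apart in this sum. The peptide genes Oxt and Avp spread most in it, from 5.544 to 615.1 and from 1.893 to 330.9 CPM. Sim1 ran from 134.9 to 312.3 CPM over the libraries. Ventromedial or arcuate markers summed to 59.14 and 60.57 CPM at ZT8 and 201.5 and 209.8 at ZT20, with 1 of 8 at 0, and GABAergic markers to 134.9 and 123.0 against 177.1 and 213.8. The part of these in the result was not tested. The members with most UMIs, Htr2c (746.6, 454.3, 571.1 and 484.0 CPM) and Chrm3 (598.8, 295.3, 352.8 and 319.1 CPM), overlapped between the times and were also highest in ZT8 replicate 1.

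Of the unnamed neuron clusters, cluster 13 had 3 of 19 members called (3.36% of all genes). Chrm3 fell from 739.8 and 783.4 to 453.1 and 508.3 CPM (log2 change -0.69 ± 0.13 SE, edgeR adjusted p = 0.002) and held without each library. Htr1f fell from 274.6 and 318.5 to 99.84 and 178.4 CPM (-1.13 ± 0.22, edgeR adjusted p = 0.0225), a call lost without ZT8 replicate 2 (-0.997, 0.0633), and Htr1b, at 1 and 3 UMIs of the first pair of libraries and 43 and 25 of the second, was not called without ZT20 replicate 1 (edgeR adjusted p = 0.206). Here 6 glutamatergic markers summed to 270.8 and 264.3 CPM at ZT8 and 134.3 and 109.5 at ZT20 and 6 GABAergic markers to 657.8 and 470.3 against 704.4 and 772.2, and their part in the result was not tested.

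Cluster 3 had 3 of 27 members called (2.38% of all genes). Chrm2 rose from 124.6 and 146.6 to 188.5 and 180.5 CPM (log2 change 0.44 ± 0.09 SE, edgeR adjusted p = 0.00311), a call lost without ZT8 replicate 1 (0.33, 0.0971). Adra2a rose from 3.039 and 2.897 to 10.01 and 8.205 CPM (1.59 ± 0.45) and Chrna6 fell from 6.685 and 6.373 to 1.036 and 2.209 (-1.96 ± 0.55). Both lost the call without any single library, with values from 1.45 to 1.73 for Adra2a and from -2.59 to -1.54 for Chrna6. Cluster 0 had 1 of 20 called (4.62%), Htr2c, from 116.2 and 104.3 to 132.9 and 134.5 CPM (0.30 ± 0.09, edgeR adjusted p = 0.038), which was lost without ZT8 replicate 2 (0.21), ZT20 replicate 1 (0.31) or ZT20 replicate 2 (0.30). Cluster 14 had 0 of 15 called in edgeR (0.243% of all genes), with 3 at an unadjusted p under 0.05 and 0 called by DESeq2.

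The members that stood high in astrocyte-like, OPC-like and microglia-like nuclei were not called between the times. A missing call is weak here. On simulated counts with an assumed spread between libraries, the test recovered 70% of 2-fold changes in astrocyte-like nuclei. For OPC-like and microglia-like nuclei the shares were 49 and 48%. In OPC-like nuclei Hrh1 read 20.54 and 29.43 CPM at ZT8 and 42.17 and 36.14 at ZT20 (log2 change 0.66, edgeR adjusted p = 0.396) and Chrna7 19.07 and 16.64 against 29.77 and 33.73 (0.86, edgeR adjusted p = 0.291). Neither gene overlapped between the times, but the share of all genes without overlap was not computed, so this adds nothing to the missing calls. Hrh1 in astrocyte-like nuclei overlapped (0.05). Astrocyte-like nuclei had 2 of 14 members called (6.75% of all genes), both among the members below the neuron level. Hrh3 fell from 32.31 and 34.10 to 15.08 and 17.51 CPM (log2 change -0.98 ± 0.24 SE, edgeR adjusted p = 0.00313), which was lost without ZT20 replicate 1 (-0.87, 0.0775). Chrm2 fell from 20.73 and 23.33 to 11.85 and 9.659 CPM (-0.97 ± 0.29, edgeR adjusted p = 0.0224), lost without any single library (from -1.13 to -0.84). Chrm2 stood at 8.074% of its neuron level here, below the median share of the neuron markers, and Hrh3 at 49.60%. In the low-UMI cluster 3, Hrh3 read 139.4 and 141.3 CPM at ZT8 and 83.70 and 100.7 at ZT20, and Chrm2 89.05 and 93.02 against 83.70 and 80.53. At ZT20 that cluster held only 85 and 121 nuclei with 71685 and 99337 UMIs in all, so its ZT20 values rest on few UMIs. Most low-UMI nuclei of ZT20 were in cluster 0 (2782 and 3794), where Hrh3 had 107.5 CPM over the pooled libraries. The 8 neuron markers summed to 1803 and 1833 CPM in astrocyte-like nuclei at ZT8 and 1750 and 1646 at ZT20, and 8 oligodendrocyte markers to 1060 and 1031 against 653.5 and 690.7 CPM, lower at ZT20, the direction of both calls. The part of these in the result was not tested.

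Oligodendrocyte-like nuclei had 2 of 14 members called (10.3% of all genes), and both lay below the median share of the neuron markers. Chrm2 fell from 20.21 and 20.36 to 11.81 and 10.09 CPM (log2 change -0.85 ± 0.26 SE, edgeR adjusted p = 0.0176) and Chrm3 from 24.17 and 20.66 to 12.33 and 12.61 (-0.81 ± 0.25, 0.0176). The Chrm2 call was lost without any single library (from -0.99 to -0.75), and that of Chrm3 without ZT8 replicate 1 (-0.70), ZT20 replicate 1 (-0.80) or ZT20 replicate 2 (-0.82). Chrm2 and Chrm3 stood at 8.387 and 3.881% of their neuron level in these nuclei, and the neuron markers summed to 1778 and 1781 CPM at ZT8 and 1637 and 1551 at ZT20. OPC-like nuclei had 0 of 10 members called in edgeR (1.29% of all genes), with 4 at an unadjusted p under 0.05, and microglia-like nuclei 0 of 5 (0.923%), with 0 at that level. DESeq2 called 0 in both. The difference of the time changes between astrocyte-like and oligodendrocyte-like nuclei was called for 0 of 15 members in edgeR, with 2 at an unadjusted p under 0.05, where 1.59% of all genes passed, and was not run in DESeq2.

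Endothelial-like nuclei had 1 of 4 members called (3.30% of all genes). Chrm3 fell from 129.2 and 138.6 to 20.77 and 20.67 CPM, on 55 and 73 against 4 and 5 UMIs (log2 change -2.67 ± 0.41 SE, edgeR adjusted p = 1.3e-04), and held without each library. The class joins a larger cluster (15), led by Flt1 and Slco1a4, and a smaller one (31), led by Eln and Mgp, with 19, 25, 2 and 2 nuclei by library. In cluster 15 alone Chrm3 read 83.63 and 123.8 against 21.45 and 21.05 CPM (-2.28, edgeR adjusted p = 0.0311), and in cluster 31 223.4 and 191.8 against 0 and 0. Under a stricter nucleus filter (1000 genes or more, no more than 1% mitochondrial UMIs) the change was -2.33 and not called (edgeR adjusted p = 0.118), and DESeq2 called 0 members in the class. Chrm3 stood at 20.53% of its neuron level in the class, below the median of 37.66 to 51.77% for the neuron markers. These markers summed to 2567 and 3174 CPM at ZT8 and 2632 and 3191 at ZT20. Mural markers in the class summed to 1929 and 1631 CPM at ZT8 and 1646 and 1955 at ZT20, and fibroblast markers, of a class with high Chrm3, to 112.8 and 182.2 against 150.6 and 124.0. The part of these in the result was not tested.

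Other genes of these pathways were read from 7 lists, by counts and medians alone. In neurons 39 of 68 list genes tested were called, 24 higher and 15 lower at ZT20, beside the 43.5% of all genes. Of the 7 monoamine synthesis genes tested 4 were higher and 0 lower, with a median log2 change of 1.26 against 0.01 over all genes. Ddc, which makes dopamine and serotonin from their precursors, read 6.456 and 7.278 CPM at ZT8 and 20.07 and 21.20 at ZT20 (1.53 ± 0.07), Hdc, which makes histamine, read 0.1362 and 0.4446 against 4.444 and 5.837 (4.02 ± 0.27), and Th, the rate-limiting enzyme of catecholamine synthesis, 1.553 and 1.615 against 3.951 and 3.943 (1.26 ± 0.15). Gch1, which makes the cofactor of Th, was higher too (2.04 ± 0.26). With the same nuclei per neuron cluster, 25 list genes were called, 20 higher and 5 lower, where 21.9% of all genes were. In that setting Ddc (0.48) and Hdc (1.83) passed, and Th (0.23) and Gch1 (0.56) did not.

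Of the transport and breakdown genes, Slc18a2 (the vesicular monoamine transporter, log2 change 1.15 ± 0.06 SE) and Slc6a3 (the dopamine transporter, 2.94 ± 0.38) were higher and Maob (-0.50 ± 0.04) and Slc18a1 (-0.61 ± 0.21) were among 3 lower of 9 tested. With the same nuclei per cluster, Slc6a3 (3.70) passed, and Slc18a2 (0.20) and Maob (-0.06) did not. The Slc18a1 call was lost without ZT8 replicate 1 (-0.45) or ZT20 replicate 2 (-0.33). For acetylcholine, Slc44a1, a choline transporter, was the 1 gene called of 7 (-0.28 ± 0.03), and Slc5a7, at 7.927, 4.657, 2.914 and 3.379 CPM, passed without ZT8 replicate 1 (-0.62), ZT8 replicate 2 (-1.39) or ZT20 replicate 2 (-1.14) but not with all libraries (-1.03, edgeR adjusted p = 0.0963), and it passed with the same nuclei per cluster (-0.86). Colq, at -0.93, passed without ZT8 replicate 2 (-1.28). Of the nicotinic chaperones and modulators, Ly6h read 232.9 and 212.4 against 333.5 and 349.6 CPM (0.57 ± 0.05), Tmem35a (NACHO, needed to assemble alpha7 receptors, 0.33 ± 0.06) and Ly6e (0.31 ± 0.05) were higher, and Lynx1 (-0.15 ± 0.04) lower, which turned to 0.04 with the same nuclei per cluster.

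Downstream of the receptors, 4 of 13 G protein alpha subunit genes were higher and 2 lower in neurons, 9 of 20 RGS, GRK and arrestin genes higher and 6 lower, and 2 of 4 GIRK channel genes higher and 2 lower, beside the 43.5% of all genes called in neurons. The count of G protein genes lies near that share. Gnas, the Gs subunit, read 455.1 and 455.3 CPM at ZT8 and 591.7 and 608.4 at ZT20 (log2 change 0.35 ± 0.02 SE, edgeR adjusted p = 1.83e-13), and the times did not overlap. Rgs7, which shortens Gi and Go signals, read 973.1 and 975.4 against 756.2 and 773.0 CPM (-0.40 ± 0.02, edgeR adjusted p = 2.56e-15), and Rgs9 30.95 and 29.70 against 55.93 and 54.20 (0.81 ± 0.04, 2.69e-14). Of the GIRK genes, which encode the potassium channels that Gi-coupled receptors open, Kcnj3 (0.10 ± 0.02) and Kcnj6 (0.18 ± 0.03) were higher and Kcnj5 (-0.39 ± 0.08) and Kcnj9 (-0.44 ± 0.03) lower. The higher pair passed with the same nuclei per cluster (0.23 and 0.25) and the lower pair did not (-0.10 and -0.06). In thalamic-like neurons 23 of 60 list genes were called, 18 higher and 5 lower, beside the 19.4% of all genes, and 12 with the same nuclei per cluster, where 14.4% of all genes were called.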

How the data were processed

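The authors deposited raw UMI counts per gene and barcode, made with Cell Ranger 7.0.0 per the file headers. Per the submitters' processing notes, Cell Ranger, STAR 2.6 and the mm10 build were used. How introns and strands were counted is not given in the sources used here. Genes were placed with GENCODE M21. The nucleus filter was 500 genes or more and no more than 5% mitochondrial UMIs. Scrublet's automatic threshold marked at most 1 nucleus per library, so the highest doublet scores were removed, at 0.8% per 1000 nuclei. Nuclei were clustered with scanpy 1.11.5 and leidenalg 0.10.2 (3000 variable genes without the members, 40 components, 20 neighbours, resolution 1), and clusters were named by marker lists, with score thresholds set after the clusters had been seen. Counts were summed per library and class, for classes of at least 50 nuclei in every library. They were tested in edgeR 4.0.16 (R 4.3.3) with filterByExpr, TMM and the robust quasi-likelihood F test, two-sided, with Benjamini-Hochberg adjustment over all genes tested and a threshold of 0.05. Levels are CPM of summed counts. The tests were checked on simulated counts. DESeq2 1.42.0 and other settings were run as alternatives. Per-library values are given for up to 12 members called per comparison and for the 4 with most UMIs per class. Members and lists were chosen with earlier results of these data known. The PVN-like class, cluster 15 alone and cluster 1 left out were added after the data were seen. The values of 1 member are not reported here.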

Additional observations from a re-analysis of the deposited data

Results flagged for a closer look

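The change of 3 members from ZT8 to ZT20 differed between thalamic-like and GABAergic-like neurons by a test of the difference itself. Chrm2 rose more in thalamic-like neurons, by 0.27 on the log2 scale, a call lost without ZT8 replicate 1, ZT20 replicate 1 or ZT20 replicate 2 (edgeR adjusted p = 0.356, 0.112 and 0.0756). The change of Chrm3 was lower there by a log2 difference of -0.46 and that of Htr1f by -0.88. With cluster 1 left out of the thalamic-like side, Chrm2 passed and the other 2 did not, in a fit that did not equalize nuclei per cluster.

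Calls of opposite direction between classes were also met, and the differences between those classes were not tested, other than that of Chrm3 between thalamic-like and GABAergic-like neurons given above. For Chrm2 the log2 change was 0.42 in thalamic-like neurons and 0.44 in neuron cluster 3, against -0.97 in astrocyte-like and -0.85 in oligodendrocyte-like nuclei. In these glia Chrm2 stood at 8.074 and 8.387% of its neuron level, below the median share of the neuron markers. Both glial calls were lost without any single library. For Chrm3 it was 0.24 in GABAergic-like neurons, against -0.22 in thalamic-like neurons, -0.69 in neuron cluster 13, -0.81 in oligodendrocyte-like and -2.67 in endothelial-like nuclei. In the last pair Chrm3 stood at 3.881 and 20.53% of its neuron level, also below the median share of the neuron markers. The calls of Chrm2 in neuron cluster 3 and of Chrm3 in GABAergic-like neurons were lost without ZT8 replicate 1, that of Chrm3 in oligodendrocyte-like nuclei without ZT8 replicate 1 or either ZT20 library, and the change of Chrm3 in thalamic-like neurons turned without neuron cluster 1.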

How the results depend on the processing

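With the same nuclei per neuron cluster, member calls in neurons went from 30 to 11, list calls from 39 to 25 in neurons and from 23 to 12 in thalamic-like neurons, and the log2 change turned for Adra2b (0.10), Drd5 (0.34), Chrm2 (0.16), Chrna6 (-0.002), Adra1b (0.047), Gnaq (-0.024), Rgs3 (0.048), Ache (-0.010) and Lynx1 (0.035). Without neuron cluster 1, Chrm3 turned in thalamic-like neurons (0.10), and 1 member, not 3, differed in its time change from GABAergic-like neurons. DESeq2 called 0 members in GABAergic-like and PVN-like neurons, neuron clusters 0 and 3, astrocyte-like, oligodendrocyte-like and endothelial-like nuclei, and 3 members and 5 list genes in thalamic-like neurons; in neurons it called 20. Without the filter on low counts, GABAergic-like neurons had 3 members called, cluster 0 had 2 and cluster 13 had 5. Under the stricter nucleus filter (1000 genes or more, no more than 1% mitochondrial UMIs) GABAergic-like neurons had 2 and endothelial-like nuclei 0. The replicate block gave 3 calls in GABAergic-like neurons and moved no other count by over 1.5 times. The replicate numbers do not pair the libraries (correlation of same-numbered deviations 0.004 in neurons, -0.024 in astrocyte-like and -0.022 in oligodendrocyte-like nuclei).

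Leaving out each library gave 25 to 28 members called in neurons, 4 to 8 in thalamic-like, 1 to 2 in GABAergic-like and 0 to 3 in PVN-like neurons, 0 to 1 in cluster 0, 1 to 2 in cluster 3, 3 to 4 in cluster 13, 0 to 2 in astrocyte-like, 0 to 1 in oligodendrocyte-like and 1 to 2 in endothelial-like nuclei. List calls were 38 to 41 in neurons and 11 to 18 in thalamic-like neurons, members that set OPC-like nuclei apart 7 to 10, and members whose time change differed between thalamic-like and GABAergic-like neurons 2 to 3. A fit without 1 library leaves 1 library at a time point, whose spread is taken from the other time. The causes were not tested. The depth differed between classes: endothelial-like nuclei of the ZT20 libraries hold 192619 and 241919 UMIs, and neurons of a library at least 36709311.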
